A study of Sus scrofa with 9 samples.

Results

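Heat shock proteins and chaperones were read across embryonic longissimus dorsi, a long back muscle, in pigs of 3 breeds. Members were taken by name: every entry of the expression table whose gene symbol begins with HSP, DNAJ, CCT2 to CCT8, BAG1 to BAG6, UNC45 or AHSA, or is TCP1 or CRYAB. This gave 70 entries with 70 distinct symbols among 19643 entries in all, of which 11179 carry a symbol. The Tibetan and Wujin groups are indigenous Chinese breeds and Large White is an introduced breed. Each is represented by 3 libraries of total RNA, with the stage given only as embryonic and no treatment or genetic change recorded. The table numbers Wujin 1 clearly, but its remaining Wujin columns, named Wujin a and Wujin b below, bear 1 header between them. Whether the libraries of a breed are different animals is not stated, and the p-values therefore reflect the spread between samples, which could be technical.

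Chaperones bind unfolded proteins and help them reach or regain their native shape. HSP70 proteins hold short exposed stretches in a cycle driven by ATP, which J-domain proteins (the DNAJ genes) start and nucleotide exchange factors such as the BAG proteins end. HSP90 finishes the folding of kinases, receptors and, with UNC45, of myosin. The ring-shaped TRiC, also called CCT, folds actin and tubulin inside its cavity, and small heat shock proteins hold damaged proteins until other chaperones act. In muscle, HSPB8 and BAG3 work with HSP70 in clearing worn filament proteins at the Z-disc, the plate that anchors thin filaments.

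The family search also returned 2 entries that are no chaperones of this kind: HSPG2, which encodes the basement membrane proteoglycan perlecan, and CCT8L2, which was listed between 0 and 0.162 FPKM. Values are FPKM, which correct the number of fragments for gene length and for sequencing depth, and levels below are on that scale. A member was tested where its mean over the 9 libraries reached 1 FPKM, which 59 members did and 11 did not. The 11 were HSP70.2, HSPA4L, HSPB9, CCT6B, CCT8L2, DNAJB13, DNAJC5B, DNAJC6, DNAJC9, DNAJC22 and DNAJC27, and none of them exceeded 1.13 FPKM in any library. Of 95 symbols of these families in the RefSeq gene table, 26 had no entry matched by symbol, among them CRYAB, HSPB1, HSPB7, CCT6A, DNAJB6 and BAG2. They were not analysed here, so the families are seen only in part.

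Total FPKM lay between 505042 and 677783 in the 9 libraries, and the number of fragments behind a value is unknown, with relative depths between 1 and 1.22 as read from the steps of low values. Across all 13106 entries tested, the median fitted log2 change was -0.77 for Tibetan minus Large White, -0.20 for Wujin minus Large White and -0.55 for Tibetan minus Wujin. Changes of members are therefore given as relative log2 changes, the fitted change of log2(FPKM + 1) less that median, with the standard error of the fitted change. The adjusted p-values, from limma over all entries tested, belong to the fitted change. Median-ratio scaling and quantile normalization remove most of this shift. Calls that held under both and without rescaling are described as called under all 3 scalings. For quantile normalization alone the share of all entries was not counted, so member counts under it have no share beside them.

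Together the members took 0.505 ± 0.102% of the total FPKM in Tibetan, 0.364 ± 0.00814% in Wujin and 0.431 ± 0.0214% in Large White libraries (SD, n = 3). Their summed level was 3149 ± 465, 1939 ± 101 and 2445 ± 35.7 FPKM. The make-up of that sum differed more than its size. The HSP70 and HSP110 family supplied 36.7% to 56.0% of it in Tibetan libraries, against 12.4% to 17.2% in the Wujin and 18.7% to 20.4% in the Large White group. TRiC supplied 6.48% to 10.2%, 19.0% to 20.0% and 20.3% to 21.3%, in the same order. Small heat shock proteins supplied 8.49% to 14.7%, 5.42% to 6.84% and 2.45% to 3.15%. In Tibetan 1, 2 and 3, HSPA1L alone held 735, 1765 and 835 of the 1030, 2061 and 1173 HSP70 and HSP110 FPKM. In Wujin and Large White libraries it held 33.1 to 46.7 of 226 to 504 FPKM. The Tibetan share of that family thus rests mostly on HSPA1L, whose reads cannot be assigned with certainty. HSPA1L also raises the Tibetan sum and lowers the Tibetan shares of all other families. Shares without it were not calculated.

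**Figure D1:**
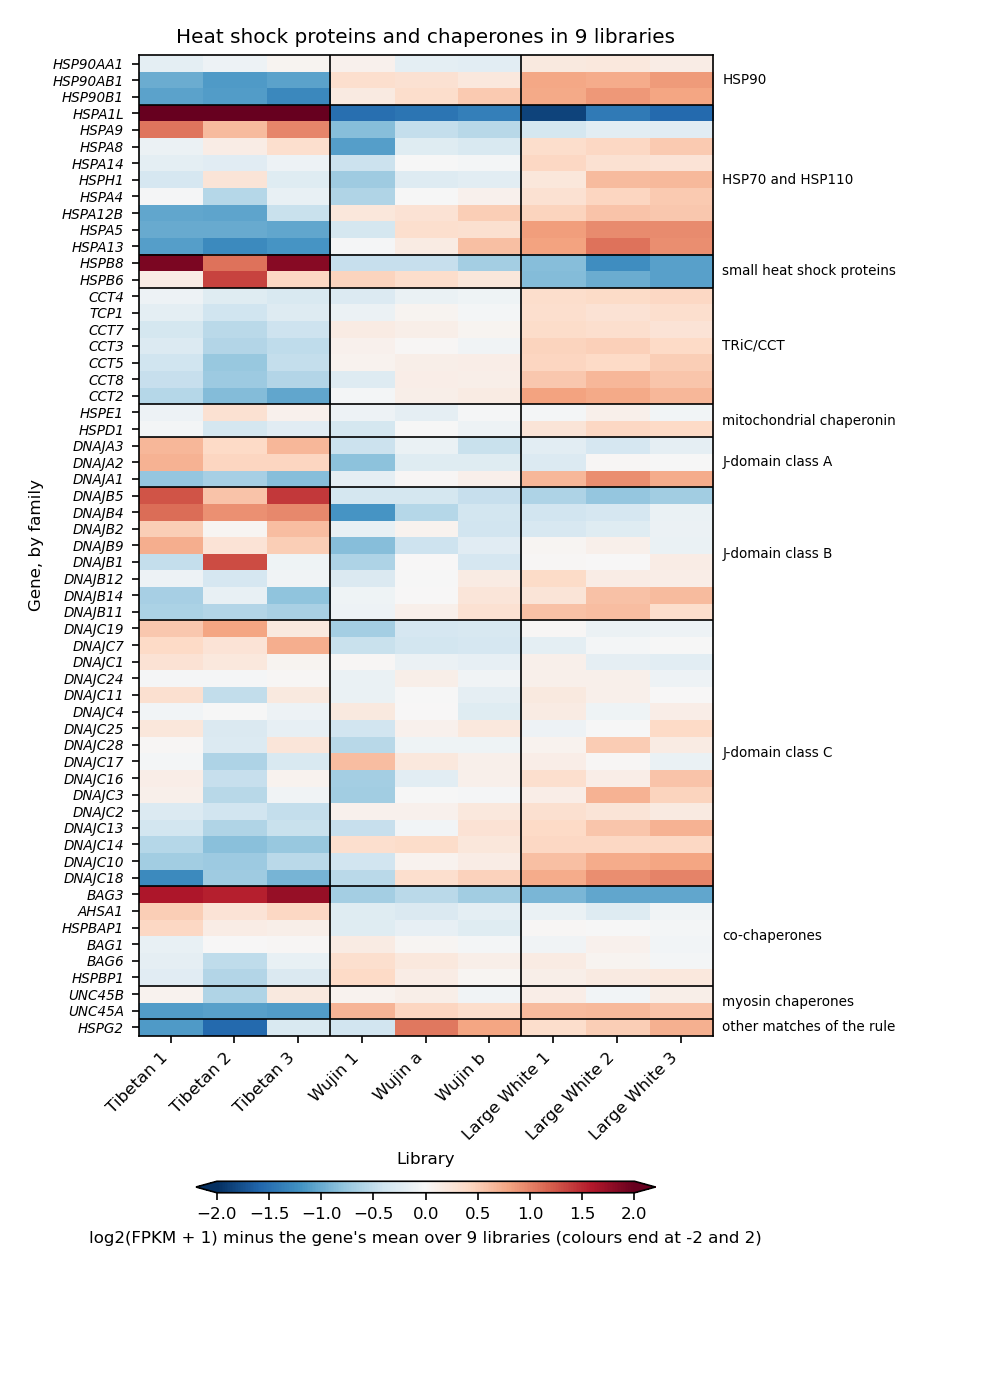
Each row is a tested member, grouped by family, and each column a library of the breed named below it. Colour gives log2(FPKM + 1) less the gene's own mean over the 9 libraries, and HSPA1L, BAG3 and HSPB8 are high in the 3 Tibetan columns while HSP90AB1, HSP90B1 and HSPA5 are low there.

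In Tibetan against Large White muscle, 14 of 59 members rose and 30 fell, and 15 were not called. In either direction that is 44 members, where 76.2% of all entries were called. Over all entries tested the share called higher was 13.0% and the share called lower 63.2%. The median relative change of the members was 0.38, with 41 above and 18 below the median of all entries. Under median-ratio scaling 32 members were higher and 10 lower, against 32.4% and 33.0% of all entries, and under quantile normalization 24 were higher and 20 lower. All 14 members that rose were called under all 3 scalings: HSPA1L, HSPA9, HSPB6, HSPB8, BAG3, AHSA1, DNAJA2, DNAJA3, DNAJB2, DNAJB4, DNAJB5, DNAJB9, DNAJC7 and DNAJC19. Of the 30 that fell, 10 were: HSP90AB1, HSP90B1, HSPA5, HSPA12B, HSPA13, DNAJA1, DNAJC10, DNAJC18, CCT2 and UNC45A. Over all entries the corresponding shares were 12.9% higher and 28.7% lower.

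Against Wujin muscle, 15 members were higher in Tibetan libraries and 22 lower, where 13.8% and 53.9% of all entries were, and 67.7% in either direction. In 15 members all Tibetan libraries lay above all Wujin libraries and in 22 below, against 14.2% and 53.5% of all entries. All 15 of the higher were called under all 3 scalings (13.7% of all entries), and 7 of the lower (27.6%): HSP90AB1, HSP90B1, HSPA5, HSPA12B, HSPA13, DNAJC14 and UNC45A. Under median-ratio scaling 36 members were higher and 7 lower, with 30.9% and 30.4% of all entries, and under quantile normalization 27 were higher and 15 lower. Both comparisons use the same Tibetan libraries, and their values are given side by side below.

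Wujin and Large White muscle differed little, with 1 member higher, HSPB6, and 10 lower, where 1.67% and 4.85% of all entries were called, 6.52% in either direction. The 10 were HSP90AB1, HSPA5, HSPA8, HSPA13, HSPH1, DNAJA1, DNAJC10, CCT2, CCT4 and CCT8. These calls hung on single libraries: without Large White 2 or without Large White 3, limma called 0 members higher and 0 lower. At an unadjusted p under 0.05 there were then 2 higher and 21 lower without Large White 2, and 2 higher and 19 lower without Large White 3. The number lower was also 1 without Wujin a, 1 without Large White 1, 5 without Tibetan 1, 5 without Tibetan 3, 6 without Wujin 1, 4 with only these 2 breeds in the fit and 1 under median-ratio scaling. That scaling called 2 members higher, where 1.86% of all entries were higher and 1.27% lower. HSPB6 was the only member higher under all 3 scalings (1.40% of all entries) and DNAJC10 the only one lower (1.24%). Without Wujin 1, Wujin a or Large White 1, HSPB6 was not called either. In 33 of the 59 members all Wujin libraries nevertheless lay below all Large White libraries and in 4 above, against 35.3% and 9.67% of all entries. For 16 members, or 27.1%, the 3 breeds formed steps without overlap, with Tibetan below Wujin below Large White, as 19.5% of all entries did. BAG3, DNAJB5 and HSPB8, or 5.08% of the tested members, formed the opposite steps, as 2.44% of all entries did.

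**Figure D2:**
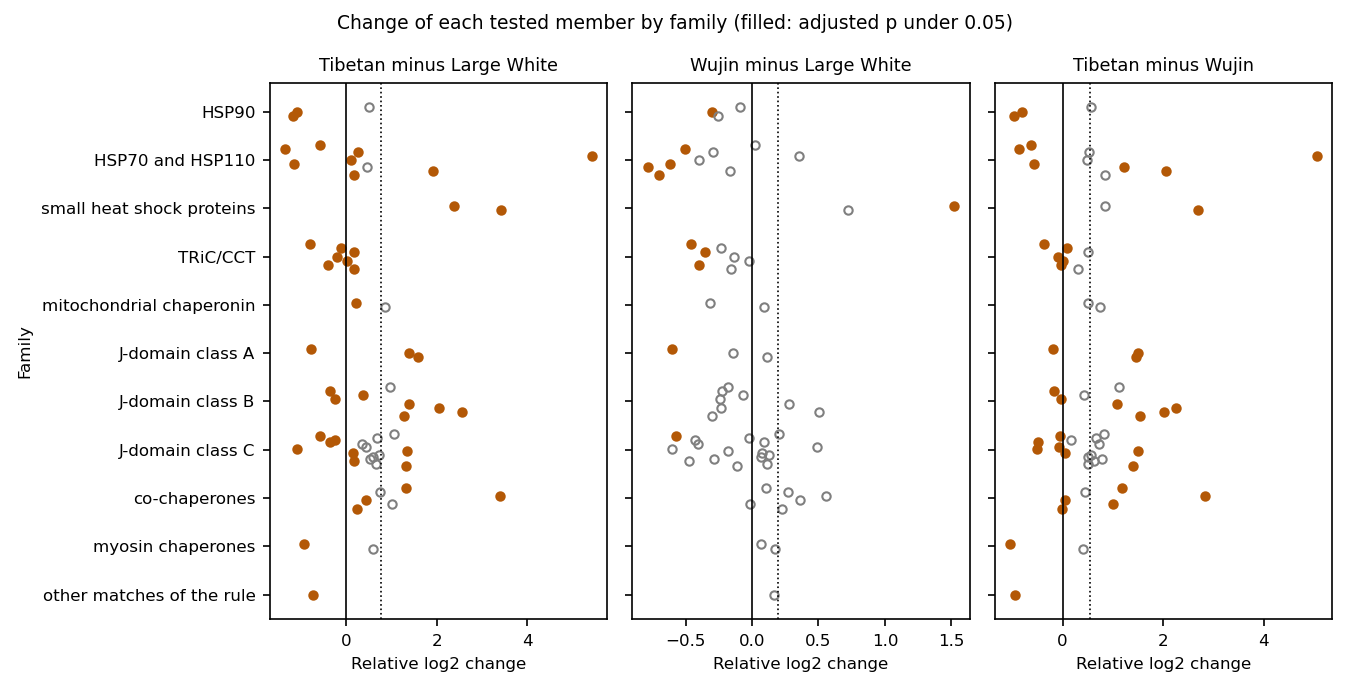
Points are the 59 tested members, placed by family (rows) and by relative log2 change (horizontal axis, log2 units) in the 3 comparisons. Filled points have an adjusted p under 0.05, the solid line is the median of all entries and the dotted line marks equal FPKM in both breeds; HSPA1L lies farthest right, at 5.44 in Tibetan minus Large White.

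The cytosolic HSP90 genes parted in Tibetan muscle. HSP90AA1 (ENSSSCG00000002535), the stress-inducible form, stood at 183, 195 and 216 FPKM in Tibetan 1, 2 and 3, at 223, 183 and 180.4 in Wujin 1, a and b, and at 239, 241 and 233 in Large White 1, 2 and 3. HSP90AB1 (ENSSSCG00000001701), the constitutive form, stood at 70.4, 64.0 and 66.8 FPKM in Tibetan, 179, 175 and 165 in Wujin and 242, 238 and 255 in Large White libraries. The groups of HSP90AB1 did not overlap in any pair of breeds, while HSP90AA1 overlapped between Tibetan and Wujin. HSP90AB1 fell from Large White to Tibetan by a relative log2 change of -1.08 ± 0.10 (adjusted p = 4.43e-07) and from Wujin to Tibetan by -0.80 ± 0.10 (adjusted p = 3.46e-06). HSP90AA1 was not called in either comparison (adjusted p = 0.0732 and 0.884). Its fitted change against Large White turned from -0.27 to 0.71 under median-ratio scaling, where it was called higher, and without rescaling it was called lower without Tibetan 3 (-0.33) or without Wujin 1 (-0.27). Within a library, where scaling cancels, the ratio of HSP90AA1 to HSP90AB1 was 2.96 ± 0.326 in Tibetan, 1.13 ± 0.102 in Wujin and 0.972 ± 0.0544 in Large White libraries (SD, n = 3). Ratios within libraries are given without a test, since 3 libraries against 3 cannot reach an exact permutation p below 0.1.

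HSP90B1 (ENSSSCG00000000849), the HSP90 of the endoplasmic reticulum, also fell. It stood at 33.9, 32.5 and 29.0 FPKM in Tibetan, 81.7, 92.4 and 104 in Wujin and 123, 133 and 125 in Large White libraries, again with no overlap. The relative change was -1.19 ± 0.12 from Large White (adjusted p = 9.64e-07) and -0.96 ± 0.12 from Wujin to Tibetan (adjusted p = 5.80e-06).

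HSP70 members went in opposite directions, and the widest range of all members was that of HSPA1L (ENSSSCG00000030368), an HSP70 gene. It stood at 735, 1765 and 835 FPKM in Tibetan 1, 2 and 3, at 42.5, 43.8 and 46.7 in Wujin and at 33.1, 45.6 and 40.9 in Large White libraries. Every Tibetan library lay far above the other 6, and Tibetan 2 above its own group. The mean was 27.9-fold that of Large White and 25.1-fold that of Wujin libraries (relative log2 changes 5.44 ± 0.29 and 5.05 ± 0.29, adjusted p = 1.03e-06 and 1.64e-06). HSPA1L is close in sequence to HSPA1A and HSPA1B, the heat-inducible HSP70 genes beside it, and no entry bore their symbols, so its reads cannot be assigned with certainty. HSP70.2, a further entry of the family whose relation to HSPA1A and HSPA1B was not examined, stayed between 0.170 and 0.570 FPKM.

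HSPA8 (ENSSSCG00000015140), the constitutive HSP70 of the cytosol, stood at 133, 159 and 183 FPKM in Tibetan, 67.1, 121 and 116 in Wujin and 185, 192 and 209 in Large White libraries. It was higher in Tibetan than in Wujin libraries (relative change 1.22 ± 0.22, adjusted p = 0.0238). It was not called once Tibetan 2 (fitted change 0.66) or Tibetan 3 (0.56) was left out, or with only these 2 breeds in the fit (0.67). Against Large White it was not called (adjusted p = 0.229), and under median-ratio scaling it was called higher (fitted change 0.66). The ratio of HSPA1L to HSPA8 ran from 4.57 to 11.1 in Tibetan, from 0.360 to 0.633 in Wujin and from 0.179 to 0.237 in Large White libraries.

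The HSP70 of each organelle followed its own course. HSPA9 (ENSSSCG00000014338), mortalin, which pulls proteins into mitochondria, stood at 90.7, 66.5 and 84.6 FPKM in Tibetan, 23.2, 30.5 and 28.9 in Wujin and 33.3, 36.6 and 36.4 in Large White libraries. HSPA5 (ENSSSCG00000005601), BiP, the HSP70 of the endoplasmic reticulum, stood at 38.6, 38.5 and 37.4, at 61.2, 98.6 and 98.1, and at 141, 152 and 152 FPKM, in the same order. Tibetan libraries were the highest of all for HSPA9 and the lowest of all for HSPA5. HSPA9 rose by 1.92 ± 0.15 against Large White and 2.06 ± 0.15 against Wujin (relative log2, adjusted p = 9.81e-05 and 2.21e-05). HSPA5 fell by 1.16 ± 0.18 and 0.57 ± 0.18 (adjusted p = 9.95e-06 and 0.000410). The ratio of HSPA9 to HSPA5 was 2.11 ± 0.338 in Tibetan, 0.327 ± 0.0456 in Wujin and 0.239 ± 0.00239 in Large White libraries.

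HSPA13 (ENSSSCG00000012007), a microsomal HSP70, stood at 1.52, 1.23 and 1.37 FPKM in Tibetan, 4.27, 5.01 and 7.14 in Wujin and 8.43, 10.4 and 9.24 in Large White libraries. Its relative change of -1.35 ± 0.17 against Large White was the lowest of any member (adjusted p = 4.13e-06). HSPA12B (ENSSSCG00000007147), an atypical HSP70 known from endothelium, stood at 2.65, 2.64 and 4.53 FPKM in Tibetan, 7.79, 8.24 and 9.55 in Wujin and 9.21, 10.1 and 9.90 in Large White libraries. It fell against both other breeds (-0.59 ± 0.17 and -0.63 ± 0.17, adjusted p = 8.12e-05 and 0.000250). The 3 matched endothelial markers summed to 29.7 to 39.2 FPKM in the Tibetan, 45.8 to 72.7 in the Wujin and 75.1 to 79.9 in the Large White group. They did not move together. Against Large White, KDR and PECAM1 were called lower, with relative changes of -1.68 and 0.003, and TEK was not called (0.94). The part of these markers in the HSPA12B result was not tested.

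HSPH1 (ENSSSCG00000009334), HSP110, an exchange factor for HSP70, stood at 6.81, 10.8 and 7.35 FPKM in Tibetan, 5.01, 7.27 and 7.52 in Wujin and 10.6, 14.3 and 14.4 in Large White libraries. It was called lower in Tibetan than in Large White libraries (fitted change -0.61, adjusted p = 0.0242) though 1 Tibetan library overlapped them. HSPH1 was not called once Tibetan 1 (-0.49), Tibetan 3 (-0.54), Large White 2 (-0.54) or Large White 3 (-0.53) was left out, nor under median-ratio scaling (0.29) and quantile normalization (0.10), where the sign turned. HSPA4 and HSPA14 were called lower with relative changes of 0.11 ± 0.20 and 0.27 ± 0.14, above the median of all entries. HSPA4 was not called without Tibetan 2 (fitted change -0.51), and the signs of both turned under median-ratio scaling (fitted changes 0.26 and 0.32).

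**Figure D3:**
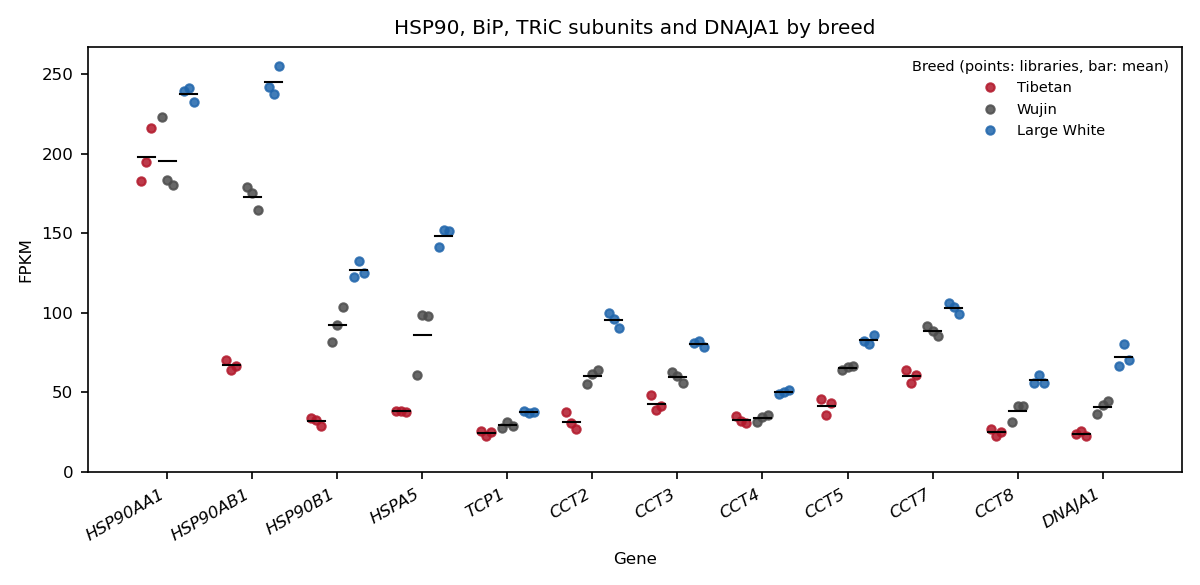
FPKM (vertical axis, linear from 0) of HSP90 genes, HSPA5, TRiC subunits and DNAJA1, with 1 point per library, coloured by breed, and a bar at the mean of 3. HSP90AB1, HSP90B1, HSPA5 and CCT2 form 3 separate steps with Tibetan lowest, while the Tibetan and Wujin points of HSP90AA1 and CCT4 overlap.

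Small heat shock proteins were higher in Tibetan muscle in both members that could be tested. HSPB8 (ENSSSCG00000009844) stood at 368, 212 and 349.9 FPKM in Tibetan, 71.3, 71.7 and 61.0 in Wujin and 54.5, 41.3 and 45.8 in Large White libraries. HSPB6 (ENSSSCG00000023498), HSP20, which binds actin-associated proteins in muscle, stood at 43.2, 101 and 52.3 FPKM in Tibetan, 53.4, 49.9 and 45.8 in Wujin and 21.0, 19.0 and 17.7 in Large White libraries. In both genes all Wujin libraries lay above all Large White libraries. Tibetan libraries of HSPB8 lay above all Wujin libraries, while those of HSPB6 overlapped them. HSPB8 rose by a relative 3.43 ± 0.21 against Large White and 2.68 ± 0.21 against Wujin (adjusted p = 4.33e-06 and 2.18e-05). HSPB6 rose by 2.39 ± 0.26 in Tibetan and by 1.52 ± 0.26 in Wujin against Large White (adjusted p = 0.000409 and 0.0322). The difference of HSPB6 between Tibetan and Wujin was not called (0.85 ± 0.26, adjusted p = 0.346), but was under median-ratio scaling (fitted change 1.02, adjusted p = 0.0196). The call of HSPB6 in Wujin ended without Wujin 1 (1.27), Wujin a (1.32), Large White 1 (1.39), Large White 2 (1.32) or Large White 3 (1.27), as fitted changes.

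BAG3 (ENSSSCG00000010686), the co-chaperone that joins HSPB8 to HSP70, had the smallest adjusted p of any member. It stood at 79.8, 75.8 and 86.6 FPKM in Tibetan, 15.4, 17.0 and 15.1 in Wujin and 12.9, 11.8 and 11.8 in Large White libraries. The relative change was 3.41 ± 0.11 against Large White and 2.83 ± 0.11 against Wujin (adjusted p = 1.14e-07 and 2.80e-07). The ratio of HSPB8 to BAG3 overlapped between all breeds, at 3.81 ± 0.929 in Tibetan, 4.28 ± 0.301 in Wujin and 3.88 ± 0.367 in Large White libraries, and 2.79 in Tibetan 2 as its lowest value. BAG1 (11.2 to 14.2 FPKM over the 9 libraries) was not called in any pair, so the ratio of BAG3 to BAG1 was 6.64 ± 0.574 in Tibetan against 1.21 ± 0.113 and 0.981 ± 0.104. Under median-ratio scaling BAG1 was called higher in Tibetan than in Large White (fitted change 0.88) and Wujin libraries (0.59), and likewise after quantile normalization (0.63 and 0.37).

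BAG6 (ENSSSCG00000001410), which guards newly made membrane proteins, stood at 48.2, 37.9 and 49.2 FPKM in Tibetan, 68.6, 63.2 and 59.0 in Wujin and 60.8, 56.6 and 52.7 in Large White libraries. It was called lower in Tibetan than in Large White libraries (fitted change -0.33, adjusted p = 0.0435). That call ended without Tibetan 2 (-0.21), Wujin a (-0.33), Wujin b (-0.33), Large White 1 (-0.28), Large White 2 (-0.33) or Large White 3 (-0.38), with only the 2 breeds (-0.33), with the replicate block (-0.33) or under quantile normalization (-0.11), and its sign turned under median-ratio scaling (0.63). AHSA1 (ENSSSCG00000002406), which speeds the ATPase of HSP90, stood at 17.7, 15.1 and 16.9 FPKM in Tibetan, 10.3, 9.88 and 10.7 in Wujin and 11.2, 10.2 and 11.8 in Large White libraries. Its Tibetan values lay above all others, and it rose by 1.32 ± 0.11 against Large White and 1.19 ± 0.11 against Wujin (relative log2, adjusted p = 0.00144 and 0.000675).

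**Figure D4:**
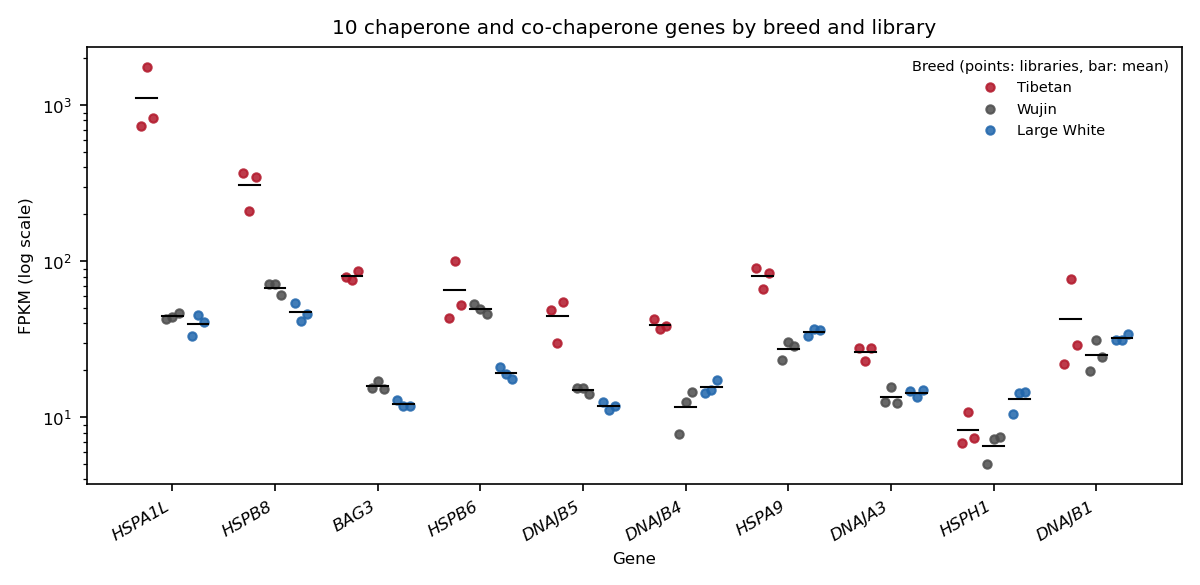
FPKM (vertical axis, log scale) of 10 genes, with 1 point per library, coloured by breed, and a bar at the mean of 3. HSPA1L, HSPB8 and BAG3 separate the Tibetan libraries from the rest, and Tibetan 2 is the single high point of DNAJB1, at 77.6 FPKM, and of HSPB6, at 101 FPKM.

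All 7 tested TRiC subunits fell from Large White to Tibetan, where 63.2% of all entries did, and 5 fell from Wujin to Tibetan. The 7 subunits summed to 259 ± 23.9 FPKM in Tibetan, 375.8 ± 10.1 in Wujin and 507 ± 6.27 in Large White libraries (SD, n = 3). Relative to all entries, however, the median change of the family against Large White was -0.13, with 4 subunits below and 3 above the median. Under median-ratio scaling CCT2 alone was called lower against Large White, TCP1 and CCT4 were called higher, and CCT3, CCT5, CCT7 and CCT8 were not called, while after quantile normalization all 7 were lower. CCT7 (ENSSSCG00000008303) stood at 64.2, 56.0 and 61.0 FPKM in Tibetan, 91.7, 88.6 and 85.6 in Wujin and 106, 104 and 99.5 in Large White libraries, a relative change of 0.01 ± 0.10 (adjusted p = 0.000105). CCT5 (ENSSSCG00000024126) stood at 46.1, 35.5 and 43.4, at 64.2, 66.2 and 66.5, and at 82.1, 80.2 and 85.8 FPKM, in the same order (-0.21 ± 0.12, adjusted p = 5.80e-05). These subunits moved about as the median entry did.

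Subunits of the ring did not keep equal proportions. CCT2 (ENSSSCG00000000496) stood at 37.6, 30.5 and 27.1 FPKM in Tibetan, 55.2, 61.8 and 63.9 in Wujin and 99.7, 95.9 and 90.5 in Large White libraries, in 3 steps without overlap. CCT2 made up 13.2%, 12.8% and 10.7% of the summed subunits in Tibetan, 15.1%, 16.1% and 16.9% in Wujin and 19.5%, 18.8% and 18.1% in Large White libraries, without overlap between breeds. CCT4 made up 12.7 ± 0.741%, 9.05 ± 0.460% and 9.89 ± 0.383%, and TCP1 9.48 ± 0.385%, 7.80 ± 0.280% and 7.43 ± 0.188%, both highest in Tibetan libraries. CCT2 thus fell beyond the other subunits, with a relative change of -0.80 ± 0.14 against Large White (adjusted p = 7.03e-06), against 0.17 ± 0.11 for CCT4 and 0.17 ± 0.10 for TCP1.

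The mitochondrial chaperonin is made of the HSPD1 barrel and the HSPE1 lid. HSPE1 (ENSSSCG00000016078) stood at 108, 144 and 123 FPKM in Tibetan, 109, 103 and 115 in Wujin and 114, 126 and 112 in Large White libraries, with overlap in every pair and no call. HSPD1 (ENSSSCG00000016077) stood at 41.0, 32.9 and 35.7, at 32.8, 41.9 and 39.0, and at 50.7, 56.5 and 55.5 FPKM, in the same order. HSPD1 was called lower in Tibetan than in Large White libraries, yet its relative change was 0.21 ± 0.13 (adjusted p = 0.00341). Under median-ratio scaling it was called higher (fitted change 0.39). HSPE1, uncalled without rescaling, had relative changes of 0.86 ± 0.13 for Tibetan against Large White and 0.74 ± 0.13 against Wujin. Under median-ratio scaling HSPE1 was called higher in both comparisons. The 6 mitochondrial members are a grouping made after their values were seen. Against Large White 3 were higher and 1 lower, where 13.0% and 63.2% of all entries were. Under median-ratio scaling all 6 were higher, where 32.4% of all entries were. HSPA9, DNAJA3 and DNAJC19 rose against Large White, HSPD1 fell, and HSPE1 and DNAJC11 were not called. The ratio of HSPA9 to HSPD1 was 2.20 ± 0.173 in Tibetan, 0.724 ± 0.0165 in Wujin and 0.654 ± 0.00517 in Large White libraries.

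J-domain proteins hand clients to HSP70, and each class held members that rose and members that fell in Tibetan muscle. Class A, which resembles the bacterial DnaJ throughout, had 3 members. DNAJA1 (ENSSSCG00000011000) stood at 23.7, 25.9 and 22.5 FPKM in Tibetan, 36.5, 42.3 and 44.6 in Wujin and 66.4, 80.2 and 70.4 in Large White libraries. DNAJA2 (ENSSSCG00000002846) stood at 31.2, 25.6 and 25.6, at 10.3, 15.8 and 15.8, and at 15.4, 19.1 and 18.7 FPKM, in the same order. Tibetan libraries were thus the lowest for DNAJA1 and the highest for DNAJA2, while Wujin lay below Large White on average in both. The ratio, DNAJA2 to DNAJA1, was 1.15 ± 0.163 in Tibetan, 0.337 ± 0.0483 in Wujin and 0.245 ± 0.0173 in Large White libraries. DNAJA1 fell by a relative 0.78 ± 0.12 against Large White (adjusted p = 4.46e-06) and DNAJA2 rose by 1.38 ± 0.18 (adjusted p = 0.0119). DNAJA3 (ENSSSCG00000022874), the class A protein of mitochondria, stood at 28.0, 23.1 and 27.8, at 12.6, 15.6 and 12.4, and at 14.7, 13.5 and 15.0 FPKM, with Tibetan highest. It rose against Large White by 1.60 ± 0.13 (adjusted p = 0.000321).

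In class B, 4 of 8 tested members rose against Large White, 3 fell and DNAJB1 was not called, where 13.0% of all entries were higher and 63.2% lower. Median-ratio scaling gave 6 higher and 0 lower, and quantile normalization 5 and 1. DNAJB5 (ENSSSCG00000005297) stood at 49.0, 29.9 and 55.0 FPKM in Tibetan, 15.4, 15.4 and 14.1 in Wujin and 12.6, 11.2 and 11.9 in Large White libraries. DNAJB4 (ENSSSCG00000003766), which is abundant in heart and skeletal muscle, stood at 42.5, 36.9 and 38.3, at 7.84, 12.5 and 14.6, and at 14.4, 15.0 and 17.3 FPKM, in the same order. Neither overlapped with another breed in Tibetan libraries (relative changes 2.55 ± 0.20 and 2.05 ± 0.20 against Large White, adjusted p = 3.79e-05 and 0.000275). DNAJB2 and DNAJB9 were higher with relative changes of 1.38 ± 0.17 and 1.27 ± 0.18. DNAJB9 was not called once Tibetan 1 (fitted change 0.39), Tibetan 3 (0.50), Large White 1 (0.52) or Large White 3 (0.43) was left out. That of DNAJB2 against Wujin ended without Tibetan 1 (0.47), Tibetan 3 (0.42) or Wujin b (0.42), or with only these 2 breeds (0.53). DNAJB1 (ENSSSCG00000013784), the heat-inducible HSP40, stood at 22.0, 77.6 and 29.2 FPKM in Tibetan, 19.7, 31.2 and 24.2 in Wujin and 31.6, 31.1 and 34.5 in Large White libraries. Only Tibetan 2 stood out, and the fitted change against Large White went from 0.18 to -0.34 without it, uncalled both times (adjusted p = 0.678 and 0.155), whereas median-ratio scaling called it higher (1.14).

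Class C, the most varied in structure, had 16 tested members, of which 2 rose, 6 fell and 8 were not called against Large White, beside 13.0% and 63.2% of all entries. Median-ratio scaling gave 7 higher and 2 lower, and quantile normalization 8 and 3. DNAJC19 (ENSSSCG00000011770), part of the motor that imports proteins into mitochondria, stood at 39.8, 47.7 and 31.2 FPKM in Tibetan, 16.6, 21.3 and 21.5 in Wujin and 27.6, 24.8 and 25.3 in Large White libraries. DNAJC7 (ENSSSCG00000017419), which passes clients between HSP70 and HSP90, stood at 32.2, 29.4 and 40.3, at 17.3, 18.3 and 18.8, and at 21.0, 23.4 and 24.0 FPKM, in the same order. Both rose, by relative changes of 1.35 ± 0.17 and 1.32 ± 0.13 (adjusted p = 0.0111 and 0.00429). DNAJC18 (ENSSSCG00000014356) stood at 1.44, 2.60 and 2.10 FPKM in Tibetan, 3.08, 6.44 and 7.17 in Wujin and 8.90, 10.3 and 10.8 in Large White libraries, a fall of -1.09 ± 0.26 (adjusted p = 0.000142). DNAJC10 (ENSSSCG00000016017), a disulfide reductase of the endoplasmic reticulum, stood at 5.20, 5.09 and 5.94, at 6.69, 9.54 and 10.2, and at 14.3, 15.8 and 16.4 FPKM. It was the only member called lower in Wujin than in Large White libraries under all 3 scalings (relative change -0.57 ± 0.15, adjusted p = 0.0322). That call ended without Wujin a (fitted change -0.83), Large White 1 (-0.82), Large White 2 (-0.75) or Large White 3 (-0.73), and with only these 2 breeds (-0.77).

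Grouped by compartment after their values were seen, 14 tested members act in or at the endoplasmic reticulum, where secreted and membrane proteins fold. Against Large White 10 of them fell in Tibetan muscle, where 63.2% of all entries did, DNAJB9 rose, and DNAJC1, DNAJC16 and DNAJC25 were not called. Over the 14 the median relative change stood at -0.31. The 10 that fell were HSP90B1, HSPA5, HSPA13, DNAJB11, DNAJB12, DNAJB14, DNAJC3, DNAJC10, DNAJC14 and DNAJC18. Median-ratio scaling gave 4 higher and 5 lower, and quantile normalization 4 and 7. The calls of DNAJB12 and DNAJC3 were frail. DNAJB12 was not called without Tibetan 1 (fitted change -0.43), Tibetan 2 (-0.31), Wujin a (-0.39) or Large White 1, 2 or 3 (-0.31, -0.43 and -0.44). DNAJC3 was not called without Tibetan 2 (-0.41), Tibetan 3 (-0.66), Wujin a or b (both -0.60), or Large White 2 or 3 (-0.47 and -0.59). DNAJC3 was also not called with the replicate block (-0.60), with a pseudocount of 0.1 (-0.72) or with no filter on low values (-0.60). Both signs turned under median-ratio scaling (0.48 and 0.21) and quantile normalization (0.37 and 0.23). The 5 matched fibroblast and matrix markers (of 6 listed) summed to 316 to 354 FPKM in the Tibetan, 3054 to 5551 in the Wujin and 5271 to 5907 in the Large White group. All 5 fell against both other breeds and their part in these results was not tested.

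The myosin chaperones also parted. UNC45B (ENSSSCG00000017717), the striated muscle form that folds myosin heads, stood at 63.3, 39.5 and 69.1 FPKM in Tibetan, 63.6, 65.7 and 57.3 in Wujin and 66.4, 58.0 and 65.3 in Large White libraries, with no call in any pair. UNC45A (ENSSSCG00000001821), the form of all cells, stood at 4.31, 4.42 and 4.31, at 17.5, 14.5 and 13.7, and at 16.8, 17.0 and 16.0 FPKM, in the same order. UNC45A fell by a relative 0.95 ± 0.11 against Large White and 1.04 ± 0.11 against Wujin (adjusted p = 1.51e-06 and 3.00e-06). The ratio of UNC45B to UNC45A was 13.2 ± 3.77 in Tibetan, 4.12 ± 0.450 in Wujin and 3.82 ± 0.358 in Large White libraries. Under median-ratio scaling UNC45B was called higher in Tibetan than in Large White (fitted change 0.79) and Wujin libraries (0.58).

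**Figure D5:**
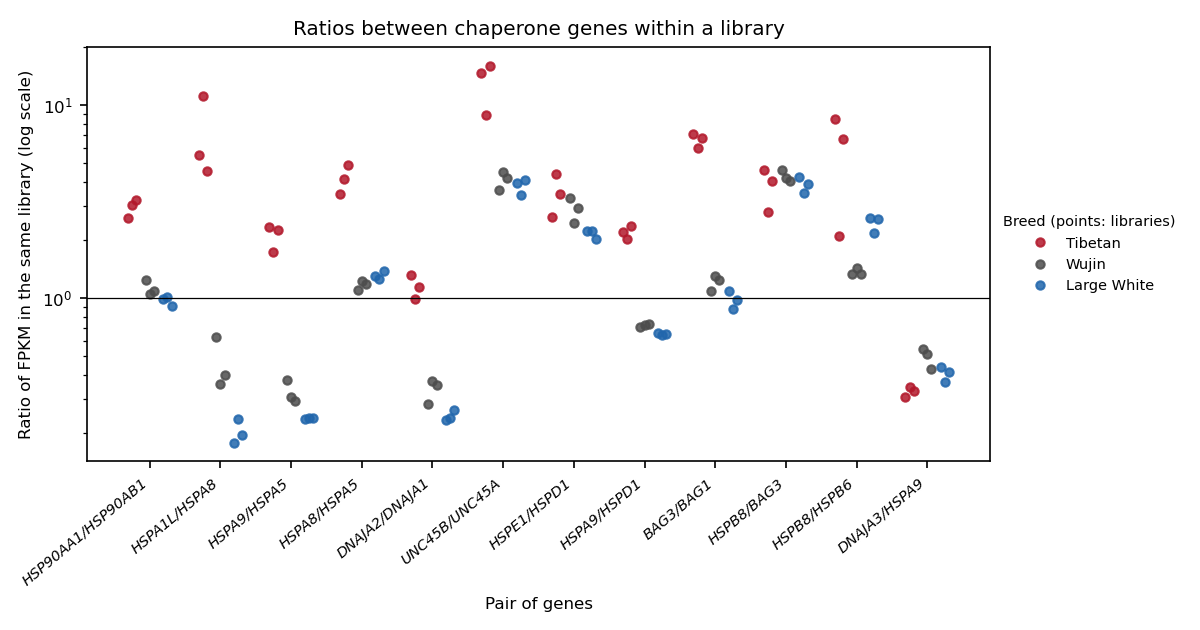
Ratio of the FPKM of 2 genes in the same library (vertical axis, log scale, line at 1), with 1 point per library, coloured by breed. Ratios such as HSP90AA1 to HSP90AB1, 2.60 to 3.24 in Tibetan and 0.911 to 1.24 elsewhere, separate Tibetan libraries, while those of HSPB8 to BAG3 overlap between all breeds.

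Markers of several cell types also differed between breeds, while the sums of leukocyte markers overlapped. ACTA1, skeletal muscle actin and 1 of the 6 matched skeletal muscle markers (of 8 listed), is listed at 0 in Tibetan 2, against 37424 and 41829 FPKM in Tibetan 1 and 3 and 3208 to 7148 in the other 6 libraries. The total FPKM of Tibetan 2 therefore lacks it. Without ACTA1, left out after this 0 was seen, the other 5 markers summed to 24546, 30653 and 27633 FPKM in Tibetan 1, 2 and 3, to 11569.9 to 17279 in Wujin and to 6920.4 to 9813 in Large White libraries. With it the Tibetan sums were 61970, 30653 and 69463 FPKM, and those of the other groups 18635 to 22987 and 10128 to 13879. DES, TNNC1 and TNNC2 were abundant in all 9 libraries, while MYF5 stood at 5.86, 5.18 and 3.01 FPKM in Tibetan libraries. In the other 6 libraries MYF5 ran from 42.9 to 56.3 FPKM. Of the 6 markers, 2 were higher (DES and TNNC2) and 2 lower (MYF5 and MYOD1) in Tibetan than in Large White libraries. The 4 matched markers of proliferating cells summed to 0.590 to 1.09, 36.99 to 52.9 and 68.2 to 74.3 FPKM. Erythroid markers (3 of 6 matched) ran from 149 to 579, 1469 to 3838 and 1930.04 to 3744 FPKM, and leukocyte markers (5 of 6 matched) from 13.6 to 31.5, 11.5 to 14.6 and 13.2 to 24.1. No matched marker was at 0 in all 9 libraries. Their part in the member results was not tested, and in bulk tissue fewer cells of a type and less RNA per cell cannot be told apart.

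Among regulators and co-factors outside the members, a list of 62 genes of which 43 were matched and 42 tested, 6 were higher and 22 lower in Tibetan than in Large White libraries. The corresponding shares of all entries were 13.0% and 63.2%, and the median relative change was 0.23. Median-ratio scaling gave 20 higher and 11 lower, and quantile normalization 18 and 19. HSF1, the master factor of the heat shock response, stood at 28.8, 19.8 and 27.4 FPKM in Tibetan, 20.9, 19.4 and 18.8 in Wujin and 14.2, 15.9 and 15.5 in Large White libraries (relative change 1.45 ± 0.15 against Large White, adjusted p = 0.00218). Against Wujin, HSF1 was not called (adjusted p = 0.0721) but was called higher without Tibetan 2 (fitted change 0.49), under median-ratio scaling (1.04) and under quantile normalization (0.64). HSF2 stood at 4.18, 3.81 and 3.15, at 5.23, 7.77 and 6.15, and at 8.001, 8.73 and 7.89 FPKM (-0.20 ± 0.15, adjusted p = 0.000285), a call lost with median-ratio scaling (fitted change -0.15) and quantile normalization (-0.14). In mean FPKM the 2 heat shock factors thus lay in opposite order. Relative to all entries, HSF2 moved about as the median entry did.

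The smallest p of the list over the 3 breeds belonged to proteins of the endoplasmic reticulum. FKBP10, a folding factor of collagen, was at 3.42 FPKM on average in Tibetan, 68.3 in Wujin and 97.8 in Large White libraries (-3.71 ± 0.18 against Large White, adjusted p = 1.20e-07). PDIA6, a disulfide isomerase, was at 17.2, 77.3 and 105 FPKM (-1.78 ± 0.11, adjusted p = 1.35e-07), and CALR, calreticulin, at 54.8, 214 and 283 FPKM (-1.57 ± 0.12, adjusted p = 2.95e-07). CDC37, which brings kinases to HSP90, was at 66.9, 68.5 and 66.5 FPKM and was not called (adjusted p = 0.968), though median-ratio scaling called it higher against Wujin (fitted change 0.70). STIP1, which links HSP70 to HSP90, fell against Large White with a relative change of 0.09 ± 0.15 (adjusted p = 0.00250), and its sign turned under median-ratio scaling (fitted change 0.28). SMYD1, which works with UNC45B and HSP90 in building thick filaments, was lower than in Large White (fitted change -1.005, adjusted p = 0.0468). That call ended without Tibetan 1 (-1.03), Tibetan 2 (-0.62), Wujin a (-1.005) or Large White 1, 2 or 3 (-1.02, -1.07 and -0.92), with no filter on low values (-1.005), and under quantile normalization (-0.80) or median-ratio scaling.

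Of the co-factors that rose, 3 that bind HSP90 or HSP70 were chosen after their values were seen. FKBP5, an immunophilin that binds HSP90, stood at 69.4, 47.5 and 59.2 FPKM in Tibetan, 2.10, 3.45 and 3.20 in Wujin and 3.83, 5.94 and 7.56 in Large White libraries (relative change 3.93 ± 0.24 against Large White, adjusted p = 3.02e-06). FKBP4, its close relative, stood at 73.7, 58.2 and 64.1, at 25.5, 25.7 and 22.9, and at 31.2, 31.8 and 31.4 FPKM (1.80 ± 0.12, adjusted p = 3.84e-05). STUB1, the ubiquitin ligase that marks HSP70 clients and acts with BAG3, stood at 94.0, 76.3 and 103, at 72.0, 51.3 and 48.0, and at 51.4, 47.5 and 47.2 FPKM (1.65 ± 0.17, adjusted p = 0.00123). In each of the 3 genes every Tibetan library lay above the other 6. They do not stand for the list, where 6 were higher and 22 lower against Large White. CDC37L1, CLPX and HSF1 were higher too. Among those called lower were ST13, FKBP8, TTC4 and STIP1, with relative changes of -0.25, 0.21, 0.14 and 0.09. PPID, PTGES3 and PPP5C were not called.

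Libraries of a breed did not agree equally well. Against the mean of the other Tibetan libraries on the log2(FPKM + 1) scale, Tibetan 2 was higher by more than 0.5 in 5 of 59 members and lower by more than 0.5 in 8, where 4.56% and 11.5% of all entries were. The 5 were DNAJB1 (1.58), HSPA1L (1.17), HSPB6 (1.07), DNAJB14 (0.59) and HSPH1 (0.55). HSP90AA1 (-0.03) and BAG3 (-0.13) did not depart by more than 0.5 in Tibetan 2. The cause of the departures was not tested. The 8 were HSPG2, DNAJB5, HSPB8, DNAJC11, UNC45B, DNAJC3, DNAJC16 and DNAJB2, from -0.83 to -0.51. Among muscle markers, Tibetan 2 also stood apart in ACTA1, listed at 0, and in TNNC1, slow troponin C, at 8645 FPKM against 1663 and 1615 in Tibetan 1 and 3. Without Tibetan 2, 14 members were higher and 26 lower than in Large White libraries, and the fitted change of HSPA1L was 4.27 and that of HSPB6 1.27. Wujin 1 was lower by more than 0.5 in 12 members and higher in 0, where 26.3% and 4% of all entries were, with HSPG2 (-1.31), DNAJC18 (-0.94), HSPA8 (-0.82) and DNAJB4 (-0.71) lowest. No Large White library departed by more than 0.5 in any member.

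HSPG2 (ENSSSCG00000003514), the perlecan gene, stood at 17.4, 12.8 and 31.8 FPKM in Tibetan, 30.02, 83.7 and 69.0 in Wujin and 50.6, 56.4 and 65.3 in Large White libraries. It fell against Large White (relative change -0.75 ± 0.40, adjusted p = 0.00656) with the widest standard error of the members, a call lost with median-ratio scaling (fitted change -0.57).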

How the data were processed

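The authors deposited 1 table of FPKM values for 9 libraries, per the file headers. The submitters' processing notes list TopHat without a version. The quantifier, build and gene models were not named in the sources used here. Symbols were matched by Ensembl identifier from a gene name table, so no positions and no sequences are given. Columns were assigned by header, and every one of the 9 was used (0 left out). No column is repeated, since each pair differs in its values. The test was limma 3.58.1 in R 4.3.3 on log2(FPKM + 1), with empirical Bayes moderation and a mean-variance trend, on 13106 entries averaging at least 1 FPKM, over all 9 libraries and with breed as the only term. Benjamini-Hochberg adjustment ran over those entries, at a threshold of 0.05. The fit was tested on simulated data. FPKM carry no counts, so no counting interval is given, and log2(FPKM + 1) understates changes of low genes.

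Values by library are given for the 2 members of highest mean in each family and the 6 highest and 6 lowest called changes per comparison with a mean of at least 5 FPKM; CCT2, AHSA1, DNAJA3 and single values of others were added after their values were seen. Marker and co-factor lists, members and families were chosen with earlier results of these data known. The alternatives tried were median-ratio scaling, quantile normalization, pseudocounts of 0.1 and 5, no filter on low values, a minimum of 5 FPKM, only the 2 breeds compared, a replicate block and leaving out each library.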

Additional observations from a re-analysis of the deposited data

How the results depend on the processing

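The counts for Tibetan against both other breeds moved mainly with scaling. For Tibetan minus Large White, members higher were 32 under median-ratio scaling and 24 under quantile normalization, and members lower 10 under median-ratio scaling; the co-factor list gave 20 and 18 higher and 11 lower. For Tibetan minus Wujin, members higher were 36 and 27 and members lower 7, and the list gave 22 and 16 higher and 10 lower. These scalings brought the median change of all entries to between -0.0311 and 4e-04. Leaving out 1 library gave 13 to 14 members higher and 26 to 31 lower for Tibetan minus Large White (list 5 to 7 and 21 to 23). For Tibetan minus Wujin it gave 13 to 16 and 21 to 24 (list 6 to 10 and 17 to 19). The F test among breeds then called 42 to 46 members. With all libraries it called 45 of 59, beside 77.6% of all entries. For Wujin minus Large White, leaving out 1 library gave 0 to 1 higher and 0 to 14 lower (list 0 higher and 0 to 6 lower). Members higher there were 2 under median-ratio scaling and 2 under quantile normalization. Members lower were 5 with a pseudocount of 0.1, 17 with a pseudocount of 5, 1 under median-ratio scaling and 4 with only the 2 breeds. The list gave 1 higher under quantile normalization, and 0, 9, 0 and 0 lower in the order of those settings; limma called 0 of the list higher otherwise, with 1 at an unadjusted p under 0.05 without rescaling and with all libraries, 0 without any 1 of the Wujin or Large White libraries and 3 under median-ratio scaling. The cause of these moves was not tested.

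Tibetan and Large White samples share replicate numbers, and the deviations of same-numbered samples correlated at 0.013, -0.023 and -0.076. Those of differently numbered samples ran from -0.111 to 0.125. No pairing by number was seen, but with 3 libraries per breed this check cannot exclude one. The replicate block gave 14 members higher and 29 lower (list 5 and 22). For the comparisons with Wujin no replicate block could be fitted, because the Wujin columns share only 1 number with the other breeds. With 3 libraries per breed, outlying samples were not searched for, and the depth behind FPKM is unknown.

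Sign changes of single genes followed the scalings. For Tibetan minus Large White, median-ratio scaling gave fitted changes of opposite sign, called before or after, of 0.53 (DNAJC24), 0.65 (DNAJC25), 0.21 (DNAJC3), 0.32 (HSPA14), 0.48 (DNAJB12), 0.24 (DNAJC2), 0.34 (HSPBP1), 0.88 (BAG1), 0.78 (DNAJC4), 0.81 (DNAJC11), 0.29 (HSPH1), 0.26 (HSPA4), 0.34 (TCP1), 0.35 (CCT4), 0.39 (HSPD1), 0.63 (BAG6), 0.79 (UNC45B), 0.064 (CCT3), 0.20 (CCT7), 0.66 (HSPA8), 0.71 (HSP90AA1), 0.28 (STIP1). For Tibetan minus Large White, quantile normalization gave fitted changes of opposite sign, called before or after, of 0.76 (DNAJC24), 0.56 (DNAJC28), 0.66 (DNAJC25), 0.23 (DNAJC3), 0.33 (HSPA14), 0.37 (DNAJB12), 0.13 (DNAJC2), 0.20 (HSPBP1), 0.63 (BAG1), 0.53 (DNAJC4), 0.56 (DNAJC11), 0.10 (HSPH1). For Tibetan minus Wujin, median-ratio scaling gave fitted changes of opposite sign, called before or after, of 0.58 (DNAJC25), 0.60 (HSPA14), 0.53 (DNAJB12), 0.15 (DNAJC2), 0.10 (HSPBP1), 0.59 (BAG1), 0.65 (DNAJC4), 0.052 (DNAJC10), 0.63 (HSPA4), 0.47 (TCP1), 0.67 (CCT4), 0.67 (HSPD1), 0.23 (BAG6), 0.13 (CCT8), 0.58 (UNC45B), 0.26 (CCT3), 0.076 (CCT5), 0.18 (CCT7), 0.70 (CDC37). For Tibetan minus Wujin, quantile normalization gave fitted changes of opposite sign, called before or after, of 0.033 (DNAJB14), 0.54 (DNAJC25), 0.57 (HSPA14), 0.42 (DNAJB12), 0.053 (DNAJC2), 0.37 (BAG1), 0.45 (DNAJC4). A further 15, 40 and 34 of 1183, 1113 and 1113 single-gene values, for Tibetan against Large White, Wujin against Large White and Tibetan against Wujin, changed sign with no call before or after.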
